A study of Mus musculus with 6 samples.

Results

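POMC neurons of the arcuate nucleus were taken from single-nucleus RNA sequencing (nucSeq) of the mouse hypothalamus as the neuronal nuclei that carried Pomc transcripts above a fixed level. A nucleus was kept when it had at least 1000 unique molecular identifiers (UMIs, each counting 1 captured transcript molecule), at least 2 UMIs of the neuronal genes Snap25, Syt1 and Rbfox3 together, at least 3 Pomc UMIs making up at least 8 of every 10000 UMIs, and fewer than 2 Agrp UMIs. This gave 346 POMC nuclei among 34707 neurons and 39953 nuclear barcodes in all. For comparison, AgRP neurons were chosen by exchanging Agrp and Pomc in the same rule (384 nuclei), and the 34361 neurons outside the POMC gate were taken as other neurons.

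All mice were male C57Bl/6 wild-type animals of 6 to 8 weeks. Of these, 12 were fed chow ad libitum in 2 cohorts and 6 were fasted overnight for 16 h. Frozen hypothalami of 6 mice at a time were pooled on the day of library preparation, which gave 2 fed pools made on different days and 1 fasted pool. DRAQ5-stained nuclei of each pool were sorted on scatter into 2 tubes for 10x Genomics 3' libraries, so that 4 fed and 2 fasted libraries stand for 3 pools. The labels do not say which fed libraries came from the same pool, and the 2 fasted libraries share 1 pool. Spread between libraries of 1 pool is technical, and fasting cannot be told apart from whatever else was particular to that single fasted pool.

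Pomc encodes proopiomelanocortin, a precursor that prohormone convertases cut into melanocortin peptides such as α-MSH. In the arcuate nucleus these peptides act on melanocortin receptors to lower food intake and raise energy expenditure, and the neighbouring AgRP neurons oppose them with the antagonist AgRP, with neuropeptide Y and with GABA. POMC neurons read leptin, insulin, serotonin and gut hormones through surface receptors, and groups of POMC neurons with different receptors have been described.

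The Pomc gene (ENSMUSG00000020660) lies on chromosome 12, from 3954951 to 3960642 on the plus strand of mm10. Its upstream sequence is shown because Pomc is the gene that defines these nuclei. The RefSeq promoter window of 250 bases before the annotated start (GRCm38.p6, chr12:3954695-3954944, plus strand) is written 5′ to 3′ with a TATA box (TATAAA, searched on both strands) and E boxes (CANNTG, a palindromic pattern) in capitals:
Pomc promoter: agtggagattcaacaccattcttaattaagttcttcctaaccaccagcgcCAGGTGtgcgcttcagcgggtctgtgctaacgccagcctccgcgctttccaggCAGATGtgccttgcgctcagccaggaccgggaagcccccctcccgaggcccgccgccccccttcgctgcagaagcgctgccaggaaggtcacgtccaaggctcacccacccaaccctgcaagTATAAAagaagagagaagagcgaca
The TATAAA began 25 bases before the start, and the E boxes began 200 and 147 bases before it. TATAAA occurred in 12.4% and CANNTG in 66.2% of the 32851 promoters in the same RefSeq table, so the E box letters are common. A match of letters is a description and not a measured binding site.

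The 6 libraries did not behave alike, and the difference ran within the fed group. Fed libraries 3 and 4 held 59083864 and 59940795 UMIs, against 39556605 and 31757655 in fed libraries 1 and 2 and 36177621 and 35567902 in fasted libraries 1 and 2. Transcripts of 90 ribosomal protein genes made up 2.44% and 2.39% of POMC UMIs in fed libraries 3 and 4, 0.415% and 0.478% in fed libraries 1 and 2, and 0.238% and 0.217% in the fasted libraries. The fed libraries thus fell into 2 pairs that differed more from each other than fed libraries 1 and 2 differed from the fasted ones on this measure. Mitochondrially encoded transcripts followed the same order, at 0.262% and 0.261%, 0.0475% and 0.0667%, and 0.0139% and 0.0146%. The summed POMC libraries held 330819, 316436, 825472 and 858804 UMIs in fed libraries 1 to 4 and 150999 and 157489 in the fasted libraries. Because of this, the fasting ratios of the genes with the widest gaps are given against each pair of fed libraries as well as against all 4. Medians over gene lists are given against all 4 only. Barcode sharing between libraries was low, at 5 to 17 barcodes in each pair of libraries, and no shared barcode was a POMC nucleus in both.

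Pomc itself chose the nuclei and is described here without a test. It reached 1883, 1836, 7135 and 7489 CPM (UMIs of the gene as a share of all UMIs of the summed nuclei, on the usual counts-per-million scale) in fed libraries 1 to 4 and 1338 and 1067 CPM in the fasted libraries. Both fasted values lay below all fed values, and fed libraries 3 and 4 stood far above the other 4 libraries. The median nucleus held 13.6, 15.7, 51.7 and 58.7 Pomc UMIs per 10000 in fed libraries 1 to 4 and 11.5 and 9.83 in the fasted libraries. The richest single nucleus reached 263 per 10000 in fed library 4 but 31.4 and 22.7 in the fasted libraries. Fasted POMC nuclei therefore sat close to the entry level of 8 per 10000. Over all libraries 52 nuclei lay just inside it, at 8 to 10 per 10000, of which 35 were fed and 17 fasted. Another 70 neurons lay just outside, at 6 to 8 per 10000, of which 43 were fed and 27 fasted. A further 41 neurons that passed the Pomc limits were kept out by Agrp, 40 of them fed.

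**Figure D1:**
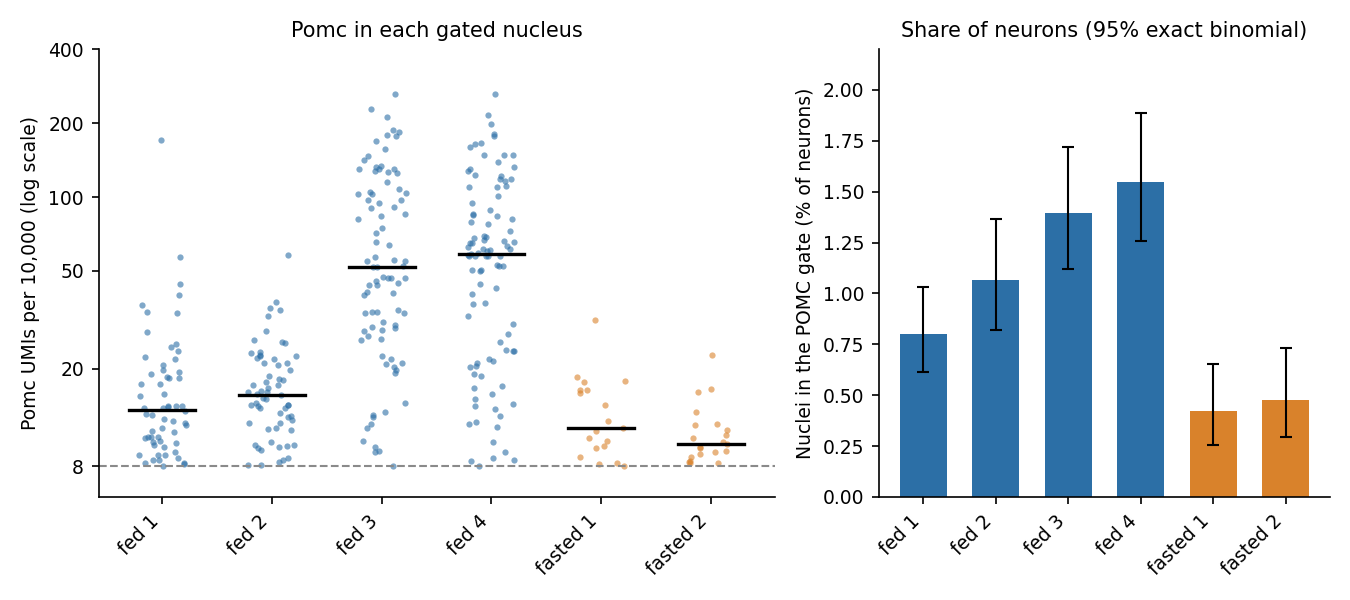
Pomc UMIs per 10,000 UMIs in single POMC nuclei (log axis, 1 point a nucleus, line at the median, dashed line at the entry level) and, as bars, POMC nuclei as a percentage of neurons with 95% exact binomial intervals, by library. Fed libraries 3 and 4 reach the highest levels, and the nuclei of both fasted libraries crowd near the entry level of 8.

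POMC nuclei were 0.803%, 1.07%, 1.40% and 1.55% of neurons in fed libraries 1 to 4 (60, 62, 87 and 97 nuclei) and 0.420% and 0.478% in the fasted libraries (19 and 21 nuclei). The mean was 1.203% ± 0.334 (SD, n = 4) in fed and 0.449% ± 0.0407 (SD, n = 2) in fasted libraries. With a stricter gate of at least 6 Pomc UMIs and 16 per 10000 the means were 0.827% ± 0.505 and 0.100% ± 0.0456. The 95% exact binomial intervals, which cover counting error only, ran from 0.613% to 1.03% in the lowest fed library and from 0.296% to 0.729% in the higher fasted library, so these overlapped. Of neurons with at least 3 Pomc UMIs, 64.9% to 75.9% passed the level of 8 per 10000 in the fed libraries but only 39.6% and 38.2% in the fasted libraries. When every nucleus was thinned to 2000 UMIs, the share passing at least 2 Pomc UMIs was 1.56% ± 0.475 in fed and 0.682% ± 0.205 in fasted libraries. A count of gated nuclei falls both when fewer POMC neurons are present and when each holds less Pomc, and these cannot be told apart here. The AgRP gate held 1.05% ± 0.294 of neurons in fed and 1.29% ± 0.117 in fasted libraries.

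The identity of the nuclei was checked against genes that the rule did not use. Cartpt, the second POMC marker, which encodes the CART peptide, had a UMI in 72.0% of POMC nuclei, 35.7% of AgRP nuclei, 30.2% of other neurons and 4.90% of 1389 oligodendrocyte nuclei, at median depths of 7082, 6527, 6500 and 2345 UMIs. The oligodendrocyte share was taken as a stand-in for free RNA in droplets, which was not measured itself. This share differed between conditions: 11.2% of 383 fed and 2.49% of 1006 fasted oligodendrocyte nuclei had a Cartpt UMI. Among POMC nuclei 73.9% of fed and 57.5% of fasted ones had one. Thinned to 2000 UMIs the fed shares were 9.68% in oligodendrocyte and 56.1% in POMC nuclei and the fasted shares 1.53% and 12 of 40 nuclei. All 6 transcription factors listed for the arcuate nucleus and the POMC lineage were higher in POMC nuclei than in other neurons by the edgeR quasi-likelihood test, where 3.31% of 23530 tested genes were called higher and 5.32% lower. Their median log2 fold change was 1.59, against -0.06 over all genes tested.

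Markers of other cell types were present at low summed levels. The oligodendrocyte markers summed to 63.5, 120, 77.5 and 83.8 CPM in fed libraries 1 to 4 and to 265 and 140 CPM in the fasted libraries, all 7 with UMIs and with Mbp the most abundant at a mean of 47.5 CPM. This sum was highest in the fasted libraries, as it was in other neurons (222 and 261 CPM fasted, 99.3 to 127 CPM fed). The 6 astrocyte markers summed to 25.6 to 63.2 CPM in the fed and 66.2 and 82.6 CPM in the fasted libraries, with Slc1a2 the most abundant and Gja1 at 0. Their part in the fasting values below was not tested. Tanycyte markers summed to 44.2 to 77.5 CPM over the 6 libraries (5 genes), oligodendrocyte precursor markers to 6.05 to 34.8 CPM (4 genes, most from Vcan) and microglia markers to 13.3 to 51.4 CPM (6 genes, most from P2ry12, Tmem119 at 0). Endothelial markers summed to 6.62 to 34.8 CPM, mostly Pecam1, with Flt1, Cldn5 and Slco1a4 at 0, against 7.20 to 11.5 CPM in other neurons. By edgeR 1 endothelial (Pecam1, log2 fold change 1.67), 1 microglia (Cx3cr1, 1.52) and 1 tanycyte marker (Vim, 1.76) were higher in POMC nuclei than in other neurons. Called lower were 1 tanycyte, 2 astrocyte and 1 pituitary marker. Values were negative for 2 of 4 endothelial, 3 of 6 microglia and 3 of 5 tanycyte markers. DESeq2 called 1 endothelial and 1 tanycyte marker higher and 0 microglia markers. The part of these markers in the differences between the populations was not tested. Pituitary corticotrophs also make Pomc, but the 9 pituitary markers summed to only 3.16 to 12.7 CPM, with Gh and Prl at 0 and the corticotroph factor Tbx19 at 0.900 ± 1.19 CPM (SD, n = 6). A co-expression doublet score marked 29 POMC nuclei, 8.38% of them, among the 5% of barcodes with the highest scores in each library.

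Against other neurons, the POMC nuclei were set apart by arcuate factors, by receptors for neuropeptide Y and by the leptin receptor. Both populations came from the same pools, and the pool was a block in the fit. Of 23530 genes tested, 779 were higher and 1252 lower in POMC nuclei at an adjusted p below 0.05 (8.63% in all). Leaving out fed library 4 lowered the count to 1356, and DESeq2 called 1044, of which 290 were higher and 754 lower. The summed other neurons are far deeper, so a gene could enter through them alone. With the count filter on the POMC sums, a setting chosen after seeing the data, 653 genes were higher and 726 lower of 9565 tested. The 20 genes named here kept their direction and their call under each of the 17 alternatives tried.

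Tbx3, a T-box factor needed for the identity of arcuate neurons, stood at 87.7, 145, 115 and 113 CPM in fed libraries 1 to 4 and 119 and 88.9 CPM in the fasted libraries. Other neurons held 7.06 to 13.7 CPM in the same libraries, so the populations did not overlap (log2 fold change 3.55 ± 0.15 SE, edgeR adjusted p 1.02e-114). Its antisense neighbour Tbx3os1, which overlaps the Tbx3 start on the opposite strand, had a log2 fold change of 3.74. Prdm12, a factor required for Pomc expression during development, averaged 15.5 ± 5.55 CPM against 1.42 CPM in other neurons (log2 fold change 3.23), and Six3 averaged 112 ± 46.2 against 33.0 CPM (1.62). Isl1 (1.32), Nhlh2 (1.57) and Nkx2-1 (0.98) completed the list of 6.

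Npy1r, the Y1 receptor through which neuropeptide Y inhibits neurons, reached 154, 218, 282 and 283 CPM in fed libraries 1 to 4 and 126 and 133 CPM in the fasted libraries, against 15.2 to 23.2 CPM in other neurons (log2 fold change 3.39 ± 0.12, edgeR adjusted p 1.78e-179). The Y5 receptor gene Npy5r, its neighbour on chromosome 8, held 157, 155, 165 and 154 CPM in fed and 166 and 222 CPM in fasted libraries, against 20.5 to 22.9 CPM (2.87 ± 0.12). Both receptors were higher in POMC nuclei in 6 of 6 libraries, which was a condition for being named. The leptin receptor gene Lepr held 87.7, 145, 110 and 137 CPM in fed and 126 and 76.2 CPM in fasted libraries, against 20.2 to 43.9 CPM in other neurons (2.16 ± 0.13). Of the 14 metabolic hormone and peptide receptors tested, 7 were higher and 2 lower, with a median log2 fold change of 0.76. The incretin receptor gene Glp1r was among the higher ones at a low level, 15.1 ± 6.49 CPM against 2.72 CPM (2.10 ± 0.39, adjusted p 3.76e-06), as were Prlr, Npy2r and Ghr. The amylin and calcitonin receptor gene Calcr (-2.12) and Igf1r (-0.61) were lower, of which Calcr was tested only because other neurons, where it is higher, passed the count filter. With the filter on the POMC sums 6 of 8 receptors were higher and 1 lower. Insr, the insulin receptor gene, averaged 104 ± 30.4 CPM against 92.6 CPM and was not called.

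**Figure D2:**
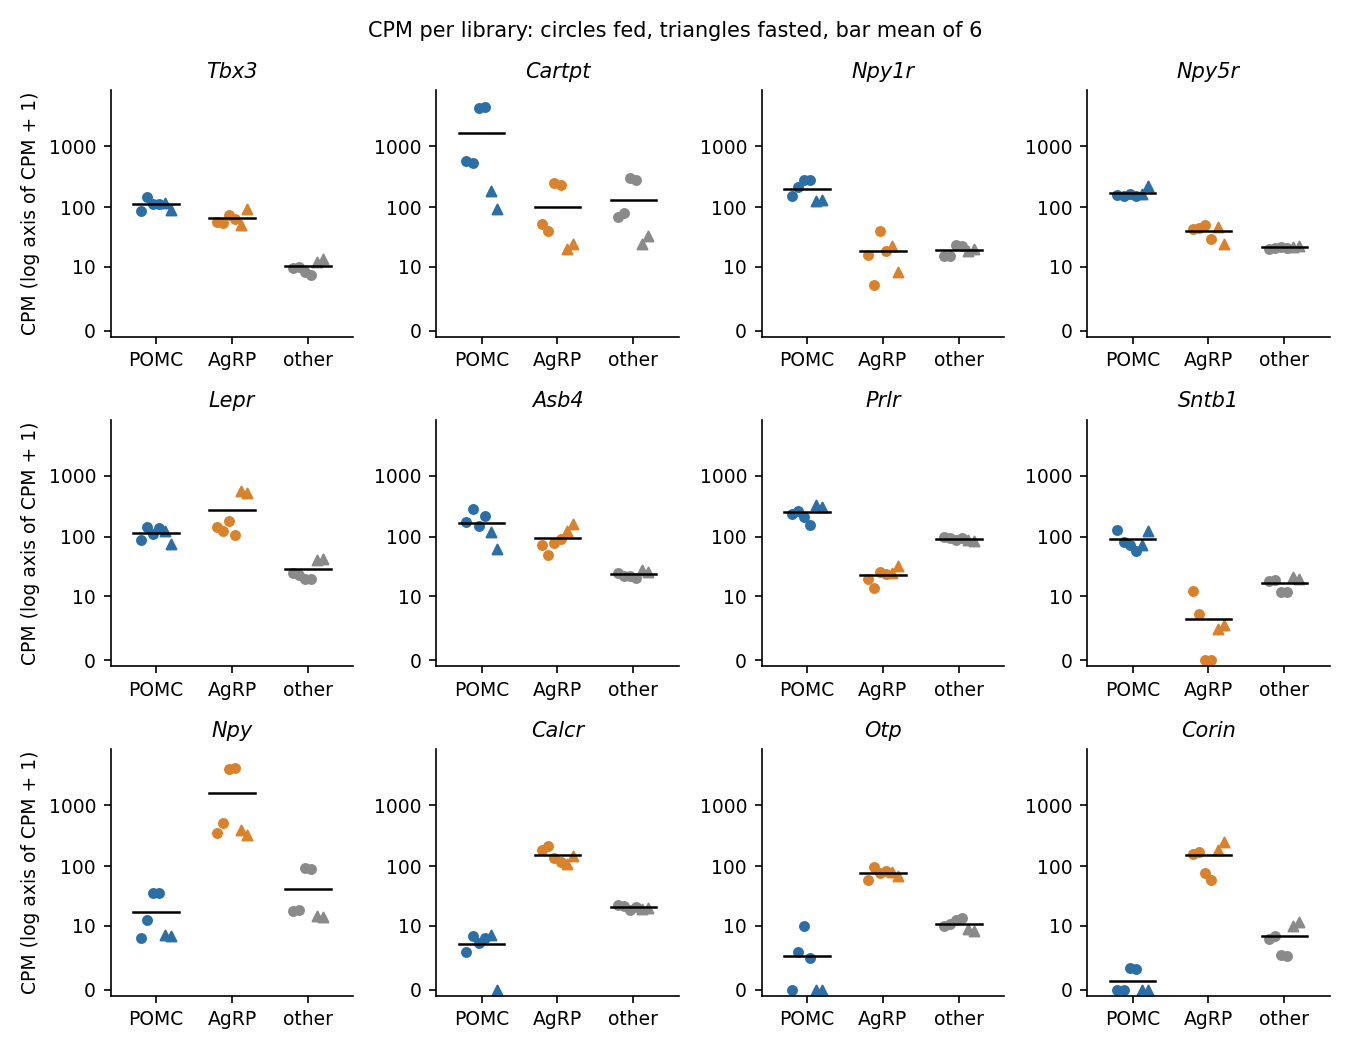
CPM of named genes in POMC nuclei, AgRP nuclei and other neurons, 1 point a library (circles fed, triangles fasted) on a log axis after adding 1 CPM, with a bar at the mean of 6 libraries. Tbx3 and Lepr are high in both arcuate populations, Npy1r and Npy5r mark the POMC nuclei, and Calcr and Npy mark the AgRP nuclei.

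Downstream of these receptors, 3 of 20 leptin and insulin signalling genes were higher and 1 lower, a share on the lower side near the 5.32% of all genes (DESeq2 3 higher and 0 lower, filter on the POMC sums 2 higher and 0 lower of 15). The leptin-activated factor Stat3 averaged 107 ± 20.0 CPM against 44.1 CPM (log2 fold change 1.34) and the feedback inhibitor Socs3 13 ± 12.5 against 1.70 CPM (2.97). The lower call, the adaptor gene Irs1 (-0.69), was not made by DESeq2, with the stricter gate or with the filter on the POMC sums. Of 16 channels and glucose sensors, 4 were higher, among them Kcnj3 and Kcnj6, subunits of G protein-gated potassium channels, and 4 lower (Kcnq5, Kcnq3, Cacna1g and Trpc4), whereas DESeq2 called 1 higher and 3 lower. Of 20 neuromodulator and steroid receptors, 4 were higher, among them the µ-opioid receptor gene Oprm1 (0.96), Esr1 (0.96) and Pgr (0.57), and 8 were lower. With the filter on the POMC sums 6 of 14 were lower, so 2 of the 8 lower ones were tested only through other neurons, where they are high. The serotonin receptor gene Htr2c, a known input to POMC neurons, was among the lower ones (166 ± 56.4 CPM against 261 CPM, log2 fold change -0.70).

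Genes of peptide handling were mixed. Of 11 processing enzymes and granins, the convertase gene Pcsk1, which makes the first cuts in the POMC precursor, was higher (60.9 ± 7.40 CPM against 31.1 CPM, log2 fold change 0.81), as were Vgf (1.29) and Scg3 (0.51), and Pcsk2, Pam and Chga were lower. DESeq2 called 2 of the 11 higher and 3 lower. Of 20 other hypothalamic neuropeptides, 17 were lower and only Pdyn, the prodynorphin gene, was higher (19.7 ± 11.8 CPM against 6.55 CPM, 1.38), with a list median of -1.49. Of these 20, 5 were tested only because other neurons, where they are high, passed the count filter. With the filter on the POMC sums 13 of 15 were lower, and DESeq2 called 8 of the 20 lower. The immediate early genes Gem (2.37) and Fos (1.32) were among 4 of 21 that were higher by edgeR, with 1 lower, while DESeq2 called 0 of the 21. With the filter on the POMC sums 4 of 8 were higher and 0 lower, so the lower call entered through other neurons. Each of these lists was chosen with earlier results of these data known.

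Among the largest differences were also genes with less familiar roles in these neurons. Asb4, a subunit of ubiquitin ligases, averaged 168 ± 77.2 CPM against 24.2 CPM in other neurons (log2 fold change 2.85), the zinc finger gene Plagl1 182 ± 34.3 against 30.5 CPM (2.596), and the copine gene Cpne4 654 ± 190 against 124 CPM (2.31). Shroom3, Sntb1 and Shisal2b were higher by 2.39, 2.39 and 3.16. The 8 genes named on the lower side were led by the contactin Cntn5, at 182 ± 43.4 CPM against 1486 CPM (-2.98), and Adarb2 (-2.89). Unc13c, Slc35f4, Tafa2, A830018L16Rik, Hs3st4 and Necab1 ranged from -2.78 to -2.43. Several of these long genes contain smaller gene models on the same strand, whose reads could not be separated from theirs.

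AgRP neurons are the nearest arcuate relatives of POMC neurons, and the direct comparison showed where the populations part. Of 10331 genes tested, 365 were higher (3.53%) and 346 lower (3.35%) in POMC nuclei by edgeR, 6.88% in all. With the count filter on the POMC sums 340 were higher and 273 lower of 9565. DESeq2 called 373 genes, of which 207 were higher and 166 lower. The 20 named genes kept their call in each alternative in which they were tested. Corin, Calcr, Otp, Pdgfd and Hmcn1 were tested only because AgRP nuclei, where they are high, passed the count filter, so their values are a description. Npy1r held 4.59 to 40.9 CPM in AgRP nuclei, below each POMC library (log2 fold change 3.35 ± 0.21, adjusted p 7.65e-08). The prolactin receptor gene Prlr held 239, 266, 212 and 154 CPM in fed and 331 and 305 CPM in fasted POMC libraries, against 13.8 to 32.5 CPM in AgRP nuclei (3.28 ± 0.20). Npy5r (2.07), Igf1r (1.01) and Htr2c (2.47) were higher as well. Six3 (1.66), Tbx3 (0.76) and Nkx2-1 (3.40) were the 3 of 4 tested arcuate factors called higher, and Isl1 was at similar means of 192 and 209 CPM (-0.11 ± 0.14, adjusted p 0.864). DESeq2 called 2 of these 4 factors higher. It also called 3 of 9 metabolic receptors (edgeR 4) and 4 of 14 neuromodulator and steroid receptors (edgeR 6) higher.

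On the other side stood the genes by which AgRP neurons are known. Npy averaged 17.4 ± 14.8 CPM in POMC and 1570 ± 1819 CPM in AgRP nuclei (log2 fold change -6.50 ± 0.25), and the serine protease gene Corin, known from AgRP neurons, had UMIs in 2 POMC libraries only, at 1.21 and 1.16 CPM. The factor Otp (-4.22), the receptor Calcr (-4.85) and the activin receptor gene Acvr1c (-3.55) were lower in POMC nuclei. Being lower in 6 of 6 libraries was a condition for naming them. Ghr, the growth hormone receptor gene, stood at 292 ± 71.0 CPM in POMC nuclei and at 985 to 2746 CPM in AgRP nuclei (-2.46 ± 0.16). Foxo1 was the called gene among 18 in leptin and insulin signalling, at 13 ± 9.04 against 92.7 CPM (-2.86), a share near the 6.88% of all genes, and it too was tested through the AgRP sums. Lepr was not called over all libraries (-0.81 ± 0.29, adjusted p 0.149), with 108 to 180 CPM in fed and 558 and 517 CPM in fasted AgRP libraries. The glucocorticoid and mineralocorticoid receptor genes Nr3c1 (-1.14) and Nr3c2 (-1.48) were both lower in POMC nuclei. Other POMC-high genes named by size were Sntb1 (5.08), Mcf2 (5.01), Etv1 (4.07), Ndst3 (4.06), Cpne4 (3.70), Sfta3-ps (3.63), Sox6 (3.45), Tenm1 (3.302) and Vav3 (3.28), while Pdgfd (-3.93), Hmcn1 (-3.67) and Filip1 (-3.42) were POMC-low. The POMC-high ones passed the count filter on the POMC sums, where they are high. Whether each would also have passed through the AgRP sums was not tested, so their values are a description.

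Both glutamate and GABA genes were found among the POMC nuclei. Slc17a6, the vesicular glutamate transporter, had a UMI in 37.3% of POMC nuclei (95% exact interval 32.2% to 42.6%), Gad2, a GABA-synthesizing enzyme, in 50.3% (44.9% to 55.7%), and Slc32a1, the vesicular GABA transporter, in 7.80% (5.21% to 11.2%). In oligodendrocyte nuclei, most of them fasted, these shares were 3.38%, 2.09% and 1.15%. Among fed nuclei thinned to 2000 UMIs the shares were 14.8%, 21.6% and 1.97% in POMC and 4.52%, 2.58% and 1.94% in oligodendrocyte nuclei. Slc32a1 was thus near its oligodendrocyte share. Slc17a6 and Gad2 were seen in the same nucleus 75 times, and Slc17a6 and Slc32a1 10 times, where Slc32a1 was found in 7.75% of nuclei with Slc17a6 and 7.83% of those without. By summed counts, Slc32a1 was lower in POMC nuclei than in both other neurons (log2 fold change -2.33) and AgRP nuclei (-2.32), and Slc17a6 was lower than in other neurons (-0.72) and higher than in AgRP nuclei (1.85).

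The leptin receptor was seen in many POMC nuclei and the GLP-1 receptor in few. Lepr had a UMI in 153 of 346 POMC nuclei (44.2%, interval 38.9% to 49.6%), in 63.5% of AgRP nuclei, 11.5% of other neurons and 0.576% of oligodendrocyte nuclei. Glp1r had one in 25 nuclei (7.23%, 4.73% to 10.5%), against 1.04%, 1.80% and 0 of 1389 oligodendrocyte nuclei, which allows a share of up to 0.216%. Thinned to 2000 UMIs, the POMC shares were 16.5% and 2.03%. In 8 nuclei both were seen, in 145 only Lepr, in 17 only Glp1r and in 176 neither, so that Glp1r was found in 5.23% of nuclei with Lepr and 8.81% of those without. In fasted nuclei the order was the other way, at 15.8% and 9.52%, and after thinning the shares over all libraries were 1.75% and 2.08%. At this depth a missing UMI does not show that a receptor is absent. Lepr had a UMI in 51.8% of nuclei with Cartpt and in 24.7% of nuclei without it, and after thinning in 19.1% and 13.6%. Ttr and Anxa2, which mark subsets of POMC neurons, were seen in 31 and 30 nuclei, Ttr together with Glp1r in 6 of them and Anxa2 together with Glp1r in 0 of 30. After thinning, Glp1r was seen in 0 of 10 nuclei with Ttr and in 0 of 13 with Anxa2. No background share is given here for Ttr or Anxa2, so their UMIs are not read as membership of a subset.

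Nuclei with Lepr alone held 1266644 UMIs in sum and those with Glp1r alone 127570, and fasted library 2 had no Glp1r-only nucleus. With this difference in depth, genes entered the test mainly through the Lepr group. Of 6812 genes tested between them 7 were called, each with the higher value in the Lepr group (0.103%), and 219 had an unadjusted p below 0.05 (3.21%). Cartpt was one, at 953, 691, 7149 and 6165 CPM in Lepr nuclei and 314, 153, 3300 and 1263 CPM in Glp1r nuclei of fed libraries 1 to 4, and 209 against 66.4 CPM in fasted library 1 (log2 fold change 1.47 ± 0.35, edgeR adjusted p 0.0406). Lepr nuclei were thus higher in each of the 5 libraries that held both kinds. The Glp1r values of Cartpt rested on 5, 2, 218 and 22 UMIs in fed libraries 1 to 4 and on 1 UMI in fasted library 1. Asb4 (2.43), the dipeptidyl peptidase-like channel subunit Dpp10 (1.93), the neuronal factor Npas3 (1.95), Gm32647 (2.33) and C77080 (4.67) were the other named calls. In the Glp1r group these 5 rested on 6, 23, 11, 9 and 1 UMIs, so they were tested only because the Lepr group passed the count filter, and the direction of the calls is not read further. None of 11 processing genes or 13 signalling genes tested was called. Sntb1 (-1.91, adjusted p 0.0536), Il1rapl2 (-1.26, 0.0603) and the estrogen receptor gene Esr1 (-1.74, 0.213) came nearest among the named genes. Esr1 held 50.5 CPM in Lepr and 180 CPM in Glp1r nuclei and was higher with Glp1r in 5 of 5 libraries. These Glp1r values rested on 5, 2, 12 and 3 UMIs in fed libraries 1 to 4. In fasted library 1 both groups had 1 Esr1 UMI, so the consistency rests on few counts. The calls depended on the tool and on single libraries: DESeq2 called 0, the stricter gate gave 0, leaving out fed library 1, 3 or 4 gave 1, 3 or 4 calls, of which 1, 3 and 2 were among the 7, and leaving out fasted library 2 gave 12.

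Fasting was compared within POMC nuclei as 1 fasted against 2 fed pools, keeping for each gene the largest p over the 3 ways in which 4 fed libraries can form 2 pools. No gene was called among 9565 tested (0.00%). At an unadjusted p below 0.05 edgeR gave 204 genes (2.13%), 48 higher and 156 lower, and DESeq2 gave 193 with 0 called. In both of the poolings that put 1 library of each fed pair into each pool, edgeR called 1647 and 1648 genes at an adjusted p below 0.05, with 2666 and 2672 at an unadjusted p below 0.05. Genes whose fasted libraries lay above all 4 fed libraries numbered 1302 (13.6%) and those below all 4 numbered 1216 (12.7%). The 12 with the widest gap on each side are described by their values.

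The widest gap upward was that of Zbtb16, a zinc finger transcription factor (PLZF), at 18.1, 19.0, 30.3 and 22.1 CPM in fed libraries 1 to 4 and 113 and 140 CPM in the fasted libraries (log2 fold change 2.42 ± 0.49, unadjusted edgeR p 0.00352, adjusted p 1). The same gene stood at 16.2 to 40.9 CPM in fed and 174 and 187 CPM in fasted AgRP libraries, and at 15.3 to 16.7 CPM and 77.2 and 75 CPM in other neurons. All populations thus had both fasted values above the fed ones. It had a UMI in 14.4% of fed POMC nuclei and in 24 of 40 fasted ones. Among the others were the circadian factor Tef, at 30.2 to 44.2 CPM fed and 106 and 108 CPM fasted (1.53 ± 0.45), Palm, encoding paralemmin (66.4 to 99.8 against 205 and 216 CPM), the Src-family kinase gene Fyn (103 to 112 against 218 and 222 CPM) and the RNA methyltransferase gene Mettl16 (56.9 to 67.8 against 139 and 146 CPM). E230001N04Rik (2.32), Fam189a2 (1.32), Zfp408 (1.43), Bop1 (1.44), the ubiquitin ligase genes Fbxo21 (1.35) and Klhl2 (1.17) and the ceramide kinase gene Cerk (1.27) made up the 12. The pairs of fed libraries were alike for these genes: each of the 12 differed by less than 1 log2 unit between the pairs. Their log2 ratios were 1.00 to 2.25 against fed libraries 1 and 2 and 0.948 to 1.91 against fed libraries 3 and 4. The sign of these ratios was fixed by the choice of genes that lay above all 4 fed libraries. Choosing the widest gaps also set a lower limit to their size, so the ratios are a description.

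The genes with the widest gap downward were of another kind. Cartpt stood at 562, 528, 4119 and 4354 CPM in fed and 185 and 95.2 CPM in fasted libraries (log2 fold change -4.18 ± 1.47, unadjusted p 0.0335). The fed pairs were thus further apart than fed libraries 1 and 2 were from the fasted ones. In 9 of the 12 genes the pairs of fed libraries differed by over 1 log2 unit, the same libraries that differ in ribosomal and mitochondrial transcripts. Against fed libraries 1 and 2 alone the 12 log2 ratios were -2.29 to -1.49, and against fed libraries 3 and 4 they were -4.82 to -1.74. Their sign was fixed by the choice of genes that lay below all 4 fed libraries. Gal, encoding galanin, had no UMI in fasted POMC nuclei and 196 in fed ones, which makes it at least 8.64-fold lower (3 counts over the fasted group taken as the floor), and Naa38 and Arxes1 were at least 4.90-fold and 4.41-fold lower by the same reckoning. These bounds came mainly from fed libraries 3 and 4, which held 180 of the 196 Gal UMIs. Against fed libraries 1 and 2 alone they were 2.54-fold for Gal, 2.22-fold for Naa38 and 2.38-fold for Arxes1. Pmch, encoding melanin-concentrating hormone of the lateral hypothalamus, was at 48.4 to 93.3 CPM fed and 0 and 6.35 CPM fasted, and Avp, encoding vasopressin, at 69.5 to 603 CPM fed and 6.62 and 19.1 CPM fasted. Both are made by other neurons, and in other neurons their fasted values were also below all fed ones (Pmch 65.2 to 543 CPM fed, 23.7 and 24.8 CPM fasted). The others were Tmsb4x, Gm1673, Cst3, Psmb6, Mif and Ctxn1, of which Ctxn1 had similar fed values (88.5 to 113 CPM) and 26.5 and 25.4 CPM fasted.

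**Figure D3:**
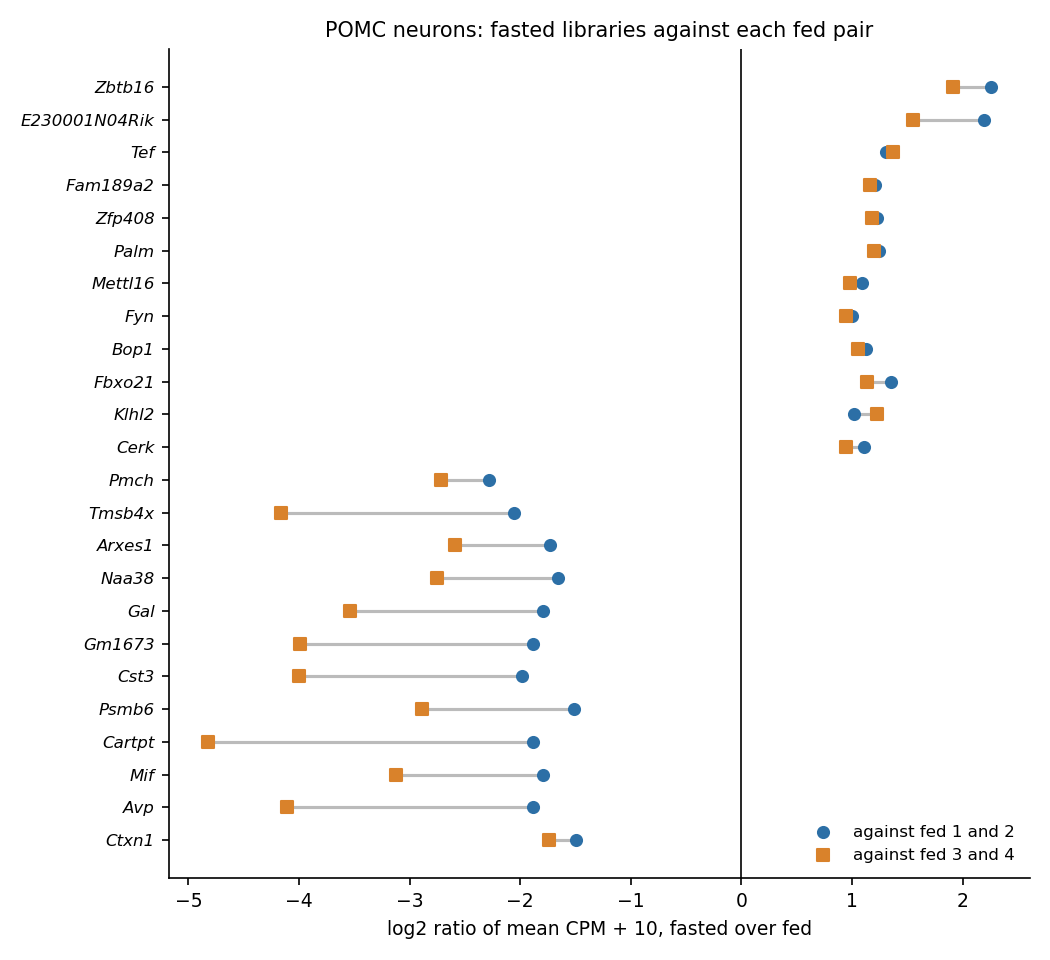
Log2 ratio of fasted to fed CPM in POMC nuclei for the 24 genes with the widest gaps, against fed libraries 1 and 2 and against fed libraries 3 and 4 (10 CPM added). The 12 higher genes give like ratios against both pairs, and most of the 12 lower genes fall further below fed libraries 3 and 4.

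By list, no member was called for fasting. Medians are taken against all 4 fed libraries and are set against -0.02 over all genes tested. Among 92 ribosomal protein and mitochondrial genes tested the median log2 fold change was -2.93, with 64 below all fed libraries and 1 above. Over all genes tested 12.7% lay below and 13.6% above all fed libraries. Other neuropeptides followed with -2.61 over 15 genes, 6 of them below all fed libraries and 0 above. Fast transmitter genes had -1.22 over 5 genes, 3 below and 1 above, and peptide processing -1.02 over 11 genes, 5 below and 1 above. Arcuate factors had 0.29 over 4 genes, metabolic receptors 0.19 over 8, with 4 above all fed libraries and 1 below, channels and glucose sensors 0.01 over 14, with 4 above and 1 below, and leptin and insulin signalling -0.00 over 15, with 3 above and 3 below. The inhibitor Socs3, which leptin induces, had 27.2, 28.4, 12.1 and 10.5 CPM in fed libraries and no UMI in fasted ones, at least 1.63-fold lower (2.86-fold against fed libraries 1 and 2 and 1.16-fold against fed libraries 3 and 4), and it was too low for the test. Slc17a6 stood at 81.6, 72.7, 96.9 and 75.7 CPM fed and 19.9 and 25.4 CPM fasted (log2 fold change -1.88, unadjusted p 0.0196), with UMIs in 39.9% of fed and 17.5% of fasted nuclei. It too was lower in fasted libraries in other neurons, at 91.9 to 147 against 61.5 and 59.4 CPM. Glucocorticoid and fasting responsive genes had a median of 0.34 over 9 genes, with 1 below and 3 above all fed libraries. Those above were Zbtb16, Sgk1 and the vesicle protein gene Sv2c (66.6 to 96.7 against 152 and 133 CPM). Immediate early genes had -0.87 over 8 genes, with Gem, Junb, Homer1 and 1700016P03Rik below all fed libraries and 1 other gene above them.

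A test of the difference between responses removes effects of a pool that are equal on the log scale in both populations. Whether handling acted equally on POMC and AgRP nuclei was not tested. AgRP neurons are known to be activated by hunger and POMC neurons to be restrained by it. Of 10331 genes, 121 differed in their fasting response between POMC and AgRP nuclei by edgeR (1.17%), 56 with a larger (0.542%) and 65 with a smaller (0.629%) log2 response in POMC nuclei. Larger and smaller follow the sign, so a lesser fall counts as larger and a deeper fall as smaller. Leaving out fasted library 2 lowered the count to 64, and leaving out fed library 4 to 80. The stricter gate, which keeps 6 and 3 nuclei in the fasted libraries, left 15, of which 1 was larger and 14 smaller. DESeq2 called 5, of which 3 were larger and 2 smaller, the latter being Pde10a and Sorcs1, so that none of the other smaller responses below was called by DESeq2. Of the 65, 60 had both fasted AgRP libraries above all fed ones, and 18 had both fasted POMC libraries below them (17.1% and 12.6% over all genes). Of the 56, 39 lay below all fed libraries in AgRP nuclei and 24 above them in POMC nuclei (13.5% and 13.4% over all genes).

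Gem, an immediate early gene for a small GTP-binding protein, held 66.5, 88.5, 46.0 and 57.1 CPM in fed and 26.5 and 6.35 CPM in fasted POMC libraries. In AgRP nuclei it held 8.10, 18.4, 18 and 20.2 CPM in fed and 140 and 154 CPM in fasted libraries. The directions were opposite, with no overlap of groups in either population (difference of log2 responses -4.89 ± 0.52, edgeR adjusted p 2.91e-07). Fos stood at 36.3, 85.3, 31.5 and 24.4 CPM in fed and 0 and 31.8 CPM in fasted POMC libraries, and at 0 to 13.1 CPM in fed and 58.7 and 59.5 CPM in fasted AgRP libraries (-3.94 ± 0.65, adjusted p 0.000349). The POMC groups overlapped for Fos and the AgRP groups did not. Junb (-3.95), Btg2 (-4.55) and 1700016P03Rik, the host transcript of miR-212 and miR-132 (-2.98), made 5 of the 9 immediate early genes tested, all smaller in POMC nuclei, with a list median of -2.98 against -0.01 over all genes. Btg2, with UMIs in 4 POMC libraries, was tested only through the AgRP sums, where it is high, and with the count filter on the POMC sums 4 of 8 were called. With the stricter gate 2 of 8 were called, and DESeq2 called 0 of the 9.

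Vgf, a secreted granin, stood at 72.5, 56.9, 144 and 130 CPM in fed and 53.0 and 25.4 CPM in fasted POMC libraries, but at 20.2 to 34.4 CPM in fed and 147 and 114 CPM in fasted AgRP libraries (difference -3.70 ± 0.41, edgeR adjusted p 4.21e-07). Scg2 (-1.16) and the carboxypeptidase gene Cpe (-0.95) also had negative differences, and Pcsk1n had a positive one (1.201). Pcsk1n fell in both populations and fell less in POMC nuclei. It held 617 to 2339 CPM in fed and 331 and 375 CPM in fasted POMC libraries. In AgRP nuclei it held 1105 to 4653 CPM fed and 341 and 287 CPM fasted. Thus 4 of 11 processing genes differed by edgeR, where 1.17% of all genes did. DESeq2 called 0 of the 11 and the stricter gate left the call of Vgf alone. The leptin receptor was the 1 receptor called of the 9 tested, by edgeR and not by DESeq2. In POMC nuclei Lepr stood at 87.7 to 145 CPM fed and 126 and 76.2 CPM fasted, and in AgRP nuclei at 108 to 180 CPM fed and 558 and 517 CPM fasted (difference -2.20 ± 0.34, adjusted p 0.000126). Without fed libraries 3 and 4 its difference was -2.11, and without fed libraries 1 and 2 it was -2.10 (log2 after adding 10 CPM, no test). Over the same splits Gem was at -4.49 and -3.65, Vgf at -2.75 and -3.29, and Fos at -3.98 and -2.28.

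**Figure D4:**
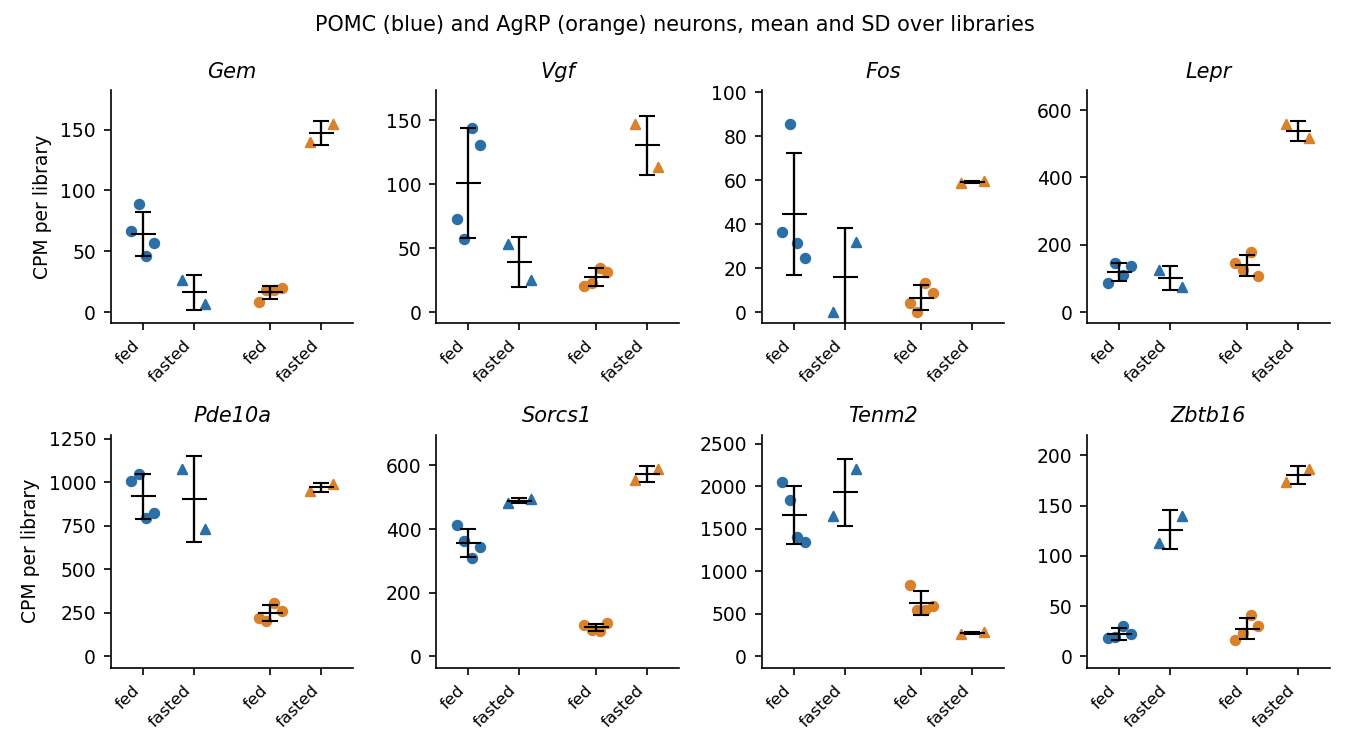
CPM per library of genes whose fasting response was compared between POMC and AgRP nuclei, fed (circles) and fasted (triangles), on a linear axis with bars for the mean and SD over 4 fed or 2 fasted libraries (the bar of fasted Fos runs past the axis). Gem, Vgf, Fos and Lepr are higher in both fasted AgRP libraries than in the 4 fed ones, and none of these is higher in both fasted POMC libraries.

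Other genes had a smaller fasting response in POMC than in AgRP nuclei. Pde10a, a phosphodiesterase gene, held 1007, 1049, 797 and 822 CPM in fed and 1079 and 730 CPM in fasted POMC libraries, while AgRP nuclei held 202 to 310 CPM fed and 953 and 988 CPM fasted (difference -1.79 ± 0.16). Sorcs1, a sorting receptor gene, held 308 to 414 CPM in fed and 483 and 495 CPM in fasted POMC libraries, and 80.3 to 104 CPM in fed and 556 and 590 CPM in fasted AgRP libraries (-2.10 ± 0.21). Its fasted libraries thus lay above all fed ones in both populations. The fasted AgRP levels of Pde10a thus lay within the range of the POMC libraries, which overlapped between fed and fasted. Pde10a and Sorcs1 were the only 2 of the 12 named genes that kept their call under each alternative tried. Eda (-2.23) and the gene model ENSMUSG00000118193 of Arhgap26 (-2.69) completed the smaller responses. The named responses with a positive difference were those of Tenm2 (1.495), Lrrc4c (1.40), Lingo2 (1.58), Sgcz (1.13), the RNA-binding protein gene Ralyl (1.598) and the potassium channel gene Kcnh7 (1.86). Each of them had both fasted AgRP libraries below all fed ones. Only Ralyl and Kcnh7 had both fasted POMC libraries above all fed ones. None of these 6 calls held with the stricter gate, where Tenm2 was at 0.48, Sgcz at 0.105 and Lingo2 at -0.019. Kcnh7 held 607 and 632 CPM in fed libraries 2 and 1, 344 and 333 CPM in fed libraries 3 and 4, and 762 and 635 CPM in fasted POMC libraries, while AgRP nuclei held 144 to 271 CPM fed and 88.1 and 86.6 CPM fasted. The channels Kcnq3 (1.23) and Kcnj3 (1.11) and the mineralocorticoid receptor gene Nr3c2 (1.28) were among the larger responses of the listed genes, and Gad1 (-2.21) and Errfi1 (-2.70) were further smaller ones. Foxo3 (2.58) was also called but was tested only through the AgRP sums, and with the count filter on the POMC sums 0 of 15 signalling genes were called. None of these 6 calls was made by DESeq2 or with the stricter gate. Zbtb16 was not called (-0.11, adjusted p 0.988), and Sv2c (-0.73, 0.370) and Fam107b (-4.32, 0.0626) missed the threshold.

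Promoters of the 65 genes with smaller responses were read for the cyclic AMP response element, the palindrome TGACGTCA, a motif chosen after the values were seen. RefSeq promoters of 300 bases matched 42 of the 65 genes by symbol, and 5 of these (11.9%) held the motif, against 0 of the 42 matched among the 56 larger responses, 3.25% of 8009 matched tested genes and 1.55% of all 32851 promoters. The 5 windows of 60 bases around it are shown 5′ to 3′ on each gene's strand, with the motif in capitals. They lie on GRCm38.p6 at chr1:134079288-134079347 (Btg2, minus), chr13:75707260-75707319 (Ell2, plus), chr4:150854993-150855052 (Errfi1, plus), chr1:79440061-79440120 (Scg2, minus) and chr1:63273184-63273243 (Zdbf2, plus):
Btg2: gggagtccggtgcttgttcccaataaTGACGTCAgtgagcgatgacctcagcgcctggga
Ell2: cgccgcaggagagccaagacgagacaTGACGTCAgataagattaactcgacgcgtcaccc
Errfi1: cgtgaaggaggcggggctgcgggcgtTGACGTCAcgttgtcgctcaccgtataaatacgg
Scg2: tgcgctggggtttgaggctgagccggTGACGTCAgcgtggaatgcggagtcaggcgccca
Zdbf2: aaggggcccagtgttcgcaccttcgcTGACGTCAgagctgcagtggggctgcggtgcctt
The responses of these genes differed by -4.55 (Btg2), -4.99 (Ell2), -2.70 (Errfi1), -1.16 (Scg2) and -1.07 (Zdbf2) on the log2 scale. The motif began 51 to 198 bases before the start in the RefSeq table in these 5. By the gene coordinates on mm10 the windows of Errfi1 (150853919 to 150868892) and Scg2 (79434669 to 79440120) lie inside the gene. Of the other 2 motifs searched in these sets, the shorter core TGACG (either strand, part of the palindrome) occurred in 35.7% of the smaller, 11.9% of the larger, 32.4% of the tested and 17.8% of all promoters. The STAT pattern TTCNNNGAA (a palindrome) occurred in 7.14%, 7.14%, 6.67% and 7.02%. A match is a description of letters in the window and was given no test.

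Against other neurons, fewer genes stood out. Of 23530 genes, 4 differed in their fasting response by edgeR (0.0170%), 1 with a positive (0.00425%) and 3 with a negative difference (0.0127%). At an unadjusted p below 0.05 there were 818 (3.48%), and DESeq2 called 0. Gem fell in POMC nuclei and rose in other neurons (-3.41 ± 0.46, edgeR adjusted p 0.0385), which held 6.71 to 9.70 CPM fed and 22 and 23 CPM fasted. Cartpt fell in both populations and fell further in POMC nuclei (-1.18 ± 0.26, edgeR adjusted p 0.0385). Other neurons held 70.0 to 301 CPM of Cartpt fed and 25.0 and 33.6 CPM fasted. This difference was -0.77 against fed libraries 1 and 2 and -1.88 against fed libraries 3 and 4 without a test. Pcdh15, encoding protocadherin 15, held 453 to 632 CPM in fed and 232 and 305 CPM in fasted POMC libraries (-1.12 ± 0.18), and Ralyl was larger (0.90 ± 0.10, adjusted p 0.0120), at 630 to 907 CPM fed and 1192 and 1543 CPM fasted. Not called were Olfm3 (1.08), Synpr (1.13), Zfpm2 (0.95), Dtna (0.78), Kcnh7 (0.66), C77080 (-4.63), Sgcd (-1.34) and Il1rapl2 (-0.91). None of the 4 calls held under each alternative, and leaving out a library gave 0 (fasted library 2), 2 (fasted library 1), 9 (fed library 1) or 10 (fed library 2) calls.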

How the data were processed

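Nuclear libraries from pooled mouse hypothalami were analysed from the deposited UMI counts. Per the submitters' notes the authors made these raw counts with Cell Ranger 5.0.1 on mm10, and by the study's methods reads in introns were counted, so long genes gain from unspliced RNA. No normalization had been applied. The members and gene lists were chosen with earlier results of these data known. Counts were summed per library and population and then per pool. With edgeR 4.0.16 (R 4.3.3, TMM scaling, quasi-likelihood test), a gene was tested when 2 or more library sums each held 10 or more of its UMIs. Each gene kept its largest p over the 3 possible poolings of the fed libraries, with Benjamini-Hochberg adjustment at 0.05 over all genes tested. Its log2 fold change or difference came from that same pooling. The SE after ± was this value, without sign, divided by the square root of the F statistic of the test. A design of 3 pools leaves little freedom to measure spread, and nuclei were never used as replicates. DESeq2 1.42.0, RLE scaling, no filter, 6 separate libraries, single poolings, a replicate block, a stricter gate (6 Pomc UMIs and 16 per 10000), removal of doublet-marked nuclei and of each library were the alternatives, and a filter on the POMC sums alone was added after seeing the data. Nuclei marked by a co-expression doublet score stayed in. Genes were named by rule. For fasting these were the 12 on each side with the widest gap between fasted and fed libraries (10 CPM added), without ribosomal and mitochondrial genes. For populations they were the 12 higher and 8 lower called genes with the largest fold change. These also needed the same direction in 6 of 6 libraries and a mean of at least 50 CPM in the higher population. For differences of responses and receptor subsets they were the 6 on each side with the smallest p and a mean of at least 20 CPM. Members of fixed lists were also named as examples. Library sums held 150999 to 858804 POMC UMIs, so genes under about 20 CPM rest on few counts. Tests were also run on simulated counts, and the outcome is not reported here. Sequences came from a RefSeq promoter table. Values of some list members are not reported here.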

Additional observations from a re-analysis of the deposited data

Results flagged for a closer look

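Among the fed libraries, Mettl16 was low in fed library 2, at 56.9 CPM against 66.5, 67.8 and 66.4 CPM in the other 3, and it was the only one of 92 tested sets of fed values (86 genes) in which 1 library stood apart, where chance gives about 1 in 20. The fasting response differed between POMC and AgRP nuclei by edgeR, in log2 units of POMC minus AgRP, by 1.495 for Tenm2, 1.40 for Lrrc4c, 1.598 for Ralyl, 1.58 for Lingo2, 1.13 for Sgcz and 1.86 for Kcnh7, and by -1.79 for Pde10a, -2.10 for Sorcs1, -4.89 for Gem, -3.70 for Vgf, -2.69 for the gene model ENSMUSG00000118193 of Arhgap26 and -2.23 for Eda. The response differed between POMC nuclei and other neurons by 0.90 for Ralyl, -3.41 for Gem, -1.18 for Cartpt and -1.12 for Pcdh15.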

How the results depend on the processing

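Of 1706 values recomputed for 100 named gene comparisons, 1534 kept their direction and side of the threshold, 70 lost and 100 gained a call, and 2 turned: with the stricter gate the response difference of Lingo2 against AgRP nuclei became -0.019 and that of Zfpm2 against other neurons -1.58. Calls for fasting numbered 0 with each library left out (0 to 0), but 1647 and 1648 with fed libraries pooled as 1 and 3 against 2 and 4 or as 1 and 4 against 2 and 3, and 99 with a replicate block over numbers 1 and 2. Deviations of same-numbered fed and fasted libraries correlated at -0.0082 and 0.0084. The 2 fasted libraries share 1 pool and their deviations mirror each other, so this check cannot decide whether the numbers pair the libraries. With DESeq2 the counts were 1044 against other neurons, 373 against AgRP nuclei, 5 for the response difference from AgRP nuclei, 0 for that from other neurons and 0 for Lepr against Glp1r nuclei. The response difference from AgRP nuclei gave 220 with fed libraries pooled as 1 and 4 against 2 and 3, 15 with the stricter gate (1 larger, 14 smaller) and 64 to 115 with a library left out. That from other neurons gave 23 with 6 separate libraries, 12 pooled as 1 and 2 against 3 and 4, 2 without a count filter, 1 without doublet-marked nuclei, 0 with the stricter gate, 0 with the filter on POMC sums, which was chosen after seeing the data, and 0 to 10 with a library left out. Lepr against Glp1r nuclei gave 14 with 6 separate libraries, 11 pooled as 1 and 2 against 3 and 4, 11 with RLE scaling, 0 with the stricter gate and 1 to 12 with a library left out. For the share of neurons in the POMC gate the log2 ratio of the fasted mean to the mean of all 4 fed libraries was -1.42, and -3.04 with the stricter gate. The cause was not tested. Depth limits the fasted values, which rest on 40 nuclei.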
